A study of Homo sapiens with 2 samples.

Results

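The expression of 9 genes for cadherins, claudins and other proteins of the epithelial cell surface was described in single cells of 2 human breast cancer lines. The genes were CDH1, CDH2, CDH3, EPCAM, CLDN3, CLDN4, CLDN7, OCLN and CD24. They were chosen by name for their function, with earlier results of these data known. They were matched to the Ensembl identifiers of the deposited matrix, which held all 9 among its 30796 genes. MDAMB468 and CAL51 are established human lines that the labels call triple negative breast cancer, a class without oestrogen receptor, progesterone receptor and amplified ERBB2. The labels name no treatment and no genetic change for either line. Each line was profiled as 1 Drop-seq library, in which single cells are lysed in droplets with a barcoded bead and the 3′ ends of their polyadenylated RNA are counted as unique molecular identifiers (UMIs).

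The MDAMB468 library held 306 barcodes with 5501900 UMIs, between 2501 and 134213 per barcode with a median of 10016.5. The CAL51 library, after 31 barcode sequences also found in MDAMB468 had been left out, held 1346 barcodes with 16223444 UMIs, between 2506 and 113702 per barcode with a median of 8635. Those 31 CAL51-labelled copies carried 135240 UMIs, and their values are given in the closing section. A further 64 MDAMB468 and 7 CAL51 barcodes lay 1 base away from a larger barcode (5 or more times their UMIs) of their own library, and they were kept. Levels are in CPM, the UMIs of a gene scaled to the same total in both lines, with exact 95% Poisson intervals in brackets. With 1 library per line there was no replicate and no test between lines, and every interval covers counting error only. The triple negative label was set beside its receptors: ESR1 had 3 UMIs in MDAMB468 and 0 in CAL51, PGR had 1 in each, and ERBB2 reached 7.09 CPM in MDAMB468 and 16.1 CPM in CAL51. Immune markers were close to 0, with 0 and 3 UMIs of PTPRC, the leukocyte surface phosphatase. The endothelial receptor gene KDR had 102 UMIs in MDAMB468 and 2 in CAL51, while the other endothelial markers PECAM1 and VWF had at most 6 UMIs in either line.

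Classical cadherins are calcium-dependent proteins that span the membrane, bind the same or a related cadherin on the neighbouring cell and are tied to actin inside the cell by catenins. E-cadherin (CDH1) is the cadherin of most epithelia including the luminal cells of the breast, P-cadherin (CDH3) is found in basal and myoepithelial cells, and N-cadherin (CDH2) is found in neural and mesenchymal tissues and in many carcinoma lines with mesenchymal features. Claudins form the strands of the tight junction, the seal between epithelial cells, and occludin (OCLN) is a membrane protein of the same junction. EPCAM is an epithelial adhesion protein and CD24 a small glycoprotein anchored in the outer membrane, and both are used to sort breast epithelial and tumour cells.

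The lines carried different cadherins. CDH1 and CDH3 were found almost entirely in MDAMB468 and CDH2 entirely in CAL51. EPCAM, CD24, CLDN4, CLDN7 and OCLN were all higher in MDAMB468, from 3.06-fold for EPCAM to 102.5-fold for CLDN7. CLDN3 was higher in MDAMB468 by less than 2-fold. On the scale of log2(CPM + 1), which shrinks the differences of scarce transcripts, 7 of the 9 genes were at least 2-fold higher in MDAMB468 and 1 was at least 2-fold higher in CAL51. Across the 15347 genes with at least 20 UMIs over both lines, 15.8% were at least 2-fold higher in MDAMB468 and 18.6% at least 2-fold higher in CAL51. All 9 genes had at least 20 UMIs. The median log2 difference, MDAMB468 minus CAL51, was 2.44 over the 9 genes and -0.13 over the 15347 genes. Because the 9 genes were chosen with earlier results of these data known, these figures describe them and test nothing.

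**Figure D1:**
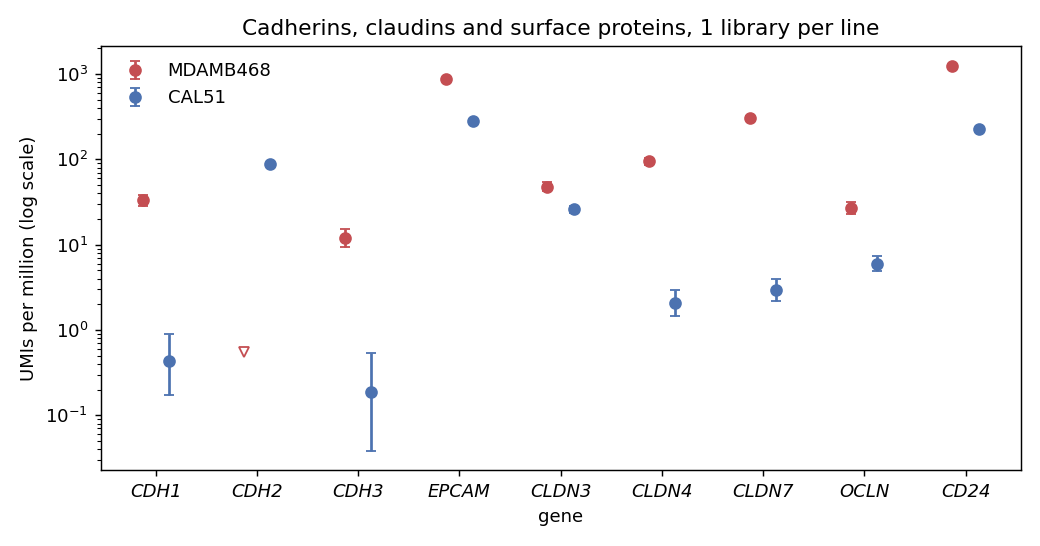
Level of each of the 9 genes in the MDAMB468 library and in the CAL51 library, as CPM on a log axis with exact 95% Poisson intervals, and a triangle at the level of 3 counts where no UMI was found. CDH2 is the gene with no UMI in MDAMB468 and 87.0 CPM in CAL51, while the other 8 genes lie higher in MDAMB468.

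CDH1 (E-cadherin, ENSG00000039068) lies on chromosome 16 from 68737225 to 68835548 on the forward strand of GRCh38 in GENCODE release 29. It had 182 UMIs in MDAMB468, or 33.1 CPM [28.4 to 38.3], and 7 UMIs in CAL51, or 0.431 CPM [0.173 to 0.889]. The level in MDAMB468 was 76.7-fold higher, with an exact interval of 36.5 to 193, and the log2 difference was 4.57. CDH3 (P-cadherin, ENSG00000062038) lies just before it on the same strand, from 68636189 to 68722616, with 14.6 kb between the annotated genes. It had 66 UMIs in MDAMB468, or 11.996 CPM [9.28 to 15.3], and 3 UMIs in CAL51, or 0.185 CPM [0.0381 to 0.540]. The ratio was 64.9 with an interval of 21.3 to 323, so both neighbouring cadherin genes differed in the same direction.

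CDH2 (N-cadherin, ENSG00000170558) lies on the reverse strand of chromosome 18 from 27950966 to 28177446. It had 0 UMIs in all 5501900 of MDAMB468, where the exact Poisson interval reaches 0.670 CPM and a floor of 3 counts over the library is 0.545 CPM. CAL51 held 1411 UMIs, or 87.0 CPM [82.5 to 91.6]. Against that floor CDH2 was 159.5-fold higher in CAL51, and it was the 1 gene of the 9 that was higher there. The 10 further classical and related cadherin genes found in the matrix added little in either line. Only CDH24, a type II cadherin, reached 20 UMIs, with 2.54 CPM in MDAMB468 and 3.08 CPM in CAL51. The other 9 had at most 3 UMIs in either line.

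EPCAM (ENSG00000119888) lies on the forward strand of chromosome 2 from 47345158 to 47387601. It had 4769 UMIs in MDAMB468 and 4595 in CAL51, which correspond to 867 CPM [842 to 892] and 283 CPM [275 to 292]. MDAMB468 was 3.06-fold higher, with an interval of 2.94 to 3.19, and the log2 difference was 1.61. CD24 (ENSG00000272398) lies on the reverse strand of chromosome 6 from 106969831 to 106975627. It had 6814 UMIs in MDAMB468 and 3684 in CAL51, or 1238.5 CPM [1209 to 1268] and 227 CPM [220 to 235]. This was a 5.45-fold difference, with an interval of 5.24 to 5.68 and a log2 difference of 2.44. Both genes were therefore present in quantity in CAL51, unlike CDH1. The annotation lists 2 processed pseudogenes of CD24, CD24P1 and CD24P2, and 1 pseudogene of OCLN, OCLNP1. The sources used here do not say how reads were divided between each gene and its copies, so the levels of CD24 and OCLN are uncertain to that extent.

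The ratio between the lines differed widely among CLDN3, CLDN4 and CLDN7. CLDN3 (ENSG00000165215) lies on the reverse strand of chromosome 7 from 73768997 to 73770270, and CLDN4 (ENSG00000189143) lies on the forward strand from 73799542 to 73832693, 29.3 kb away. CLDN3 had 262 UMIs in MDAMB468 and 419 in CAL51, or 47.6 CPM [42.0 to 53.7] and 25.8 CPM [23.4 to 28.4], 1.84-fold higher in MDAMB468 [1.57 to 2.16]. CLDN4 had 522 and 34 UMIs, or 94.9 CPM [86.9 to 103] and 2.10 CPM [1.45 to 2.93], 45.3-fold higher [32.0 to 66.1]. The neighbouring claudin genes thus differed by very different amounts, with log2 differences of 0.86 and 4.95. CLDN7 (ENSG00000181885) lies on the reverse strand of chromosome 17 from 7259903 to 7263983. It had 1669 UMIs in MDAMB468 and 48 in CAL51, or 303 CPM [289 to 318] and 2.96 CPM [2.18 to 3.92]. Its ratio of 102.5, with an interval of 77.0 to 140, and its log2 difference of 6.26 were the highest of those of the 9 genes that had UMIs in both lines. OCLN (ENSG00000197822), on the forward strand of chromosome 5 from 69492292 to 69558104, had 148 and 97 UMIs. These gave 26.9 CPM [22.7 to 31.6] in MDAMB468 and 5.98 CPM [4.85 to 7.29] in CAL51, 4.50-fold higher in MDAMB468 [3.46 to 5.87].

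The stretches upstream of CLDN3 and CLDN7 are shown because they had the smallest and the highest ratio among those of the 9 genes that were found in both lines. They are the 250 bases before a start site in RefSeq, on GRCh38.p14, written 5′ to 3′ in the direction of the gene. Capitals mark CACCTG or its reverse complement CAGGTG, the hexamer bound by ZEB and SNAI repressors. Before CLDN3 the stretch is chr7:73770271-73770520 on the reverse strand, and before the outer start of CLDN7 it is chr17:7263214-7263463 on the reverse strand. Neither holds the hexamer, so no letter of them is in capitals.
CLDN3: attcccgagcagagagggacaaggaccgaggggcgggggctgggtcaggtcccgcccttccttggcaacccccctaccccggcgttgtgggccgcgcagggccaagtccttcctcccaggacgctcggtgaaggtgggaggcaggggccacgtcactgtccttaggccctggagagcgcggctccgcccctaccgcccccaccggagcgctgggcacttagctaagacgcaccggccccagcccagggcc
CLDN7: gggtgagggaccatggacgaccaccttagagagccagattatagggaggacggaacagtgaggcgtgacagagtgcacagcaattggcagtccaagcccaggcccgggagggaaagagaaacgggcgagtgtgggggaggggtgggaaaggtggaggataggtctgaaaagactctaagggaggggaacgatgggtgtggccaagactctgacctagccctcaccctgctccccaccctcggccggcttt
A second RefSeq start of CLDN7 lies further inside the gene, and the 250 bases before it, chr17:7262479-7262728, hold the hexamer 4 times. These bases overlap annotated exons, so windows of 30 bases are shown: chr17:7262635-7262664, chr17:7262596-7262625 and chr17:7262479-7262508, all on the reverse strand.
CLDN7 first site: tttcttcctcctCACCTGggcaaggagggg
CLDN7 second site: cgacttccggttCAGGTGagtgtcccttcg
CLDN7 last 2 sites: tacatatactCAGGTGcgcccCACCTGtcc
The hexamer was found on either strand in 17.5% of 35116 upstream stretches of the same length in the RefSeq table. The 250 bases before each of the 2 starts of OCLN hold it once, and those before CLDN4 do not hold it. Of the stretches before the 3 starts of CD24, 1 holds it, 249 bases before the start at chr6:106974040-106974289, and the others do not. These matches are descriptions of the letters and not evidence of binding.

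The lines were next compared cell by cell at equal depth. Each barcode was thinned at random to 2500 UMIs, and a barcode with at least 1 remaining UMI of a gene was counted as positive, with exact Clopper-Pearson intervals in brackets. EPCAM was found in 279 of 306 MDAMB468 barcodes, 91.2% [87.4 to 94.1], and in 553 of 1346 CAL51 barcodes, 41.1% [38.4 to 43.8]. CD24 was found in 94.8% [91.7 to 97.0] of MDAMB468 and in 28.0% [25.6 to 30.5] of CAL51. Without thinning the shares were 98.4% and 64.8% for EPCAM and 99.0% and 47.1% for CD24. Nearly every MDAMB468 barcode thus carried EPCAM and CD24, while most CAL51 barcodes carried neither at this depth or just 1 of them.

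CDH1 was found in 6.21% [3.78 to 9.53] of MDAMB468 barcodes at equal depth and in 2 of 1346 CAL51 barcodes, 0.149% [0.018 to 0.536]. CDH2 was found in 0 of 306 MDAMB468 barcodes, with an exact upper limit of 1.20%, and in 243 CAL51 barcodes, 18.1% [16.0 to 20.2]. CDH3 was found in 2.61% [1.14 to 5.09] of MDAMB468 and in 0 of 1346 CAL51 barcodes, with an exact upper limit of 0.274%. The cadherins were low enough for most cells to be missed at 2500 UMIs, since the unthinned shares were 35.0% for CDH1 and 16.3% for CDH3 in MDAMB468 and 52.7% for CDH2 in CAL51. Neither of the 2 CDH1-positive CAL51 barcodes had a CDH2 UMI after thinning.

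CLDN7 was found in 49.3% [43.6 to 55.1] of MDAMB468 and 1.04% [0.570 to 1.74] of CAL51 barcodes. CLDN4 was found in 18.3% [14.1 to 23.1] and 0.371% [0.121 to 0.865]. OCLN was found in 6.54% [4.04 to 9.91] and 1.26% [0.737 to 2.02]. For these 3 genes of the tight junction the intervals lay apart. CLDN3 was found in 11.1% [7.82 to 15.2] and 6.09% [4.87 to 7.51], but another random thinning gave 8.82% [5.90 to 12.6] and 6.02% [4.81 to 7.42], whose intervals overlap. The same overlap was seen without the barcodes that lie 1 base from a larger one, at 8.68% [5.45 to 13.0] for MDAMB468. The difference in CLDN3-positive cells was therefore not settled at this depth.

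Free RNA in droplets can add UMIs to cells that do not express a gene. Each library is labelled as 1 line. No other cell type that should lack these genes was identified in either, so the share of such UMIs within a library was not tested. KRT7, a keratin gene at 953 CPM in MDAMB468, had 0 UMIs in the CAL51 barcodes kept, and ZEB1, with 1101 UMIs in CAL51, had 1 in MDAMB468. The 31 CAL51-labelled copies left out held 106 KRT7 UMIs, or 784 CPM, and the origin of these copies was not tested. As the lines are separate libraries, these values do not measure free RNA within either of them. Over the 9 genes, MDAMB468 barcodes had a median of 3 genes detected, from 1 to 5, and CAL51 barcodes had a median of 1, from 0 to 4. None of the 9 genes was detected in 473 CAL51 barcodes, 35.1%.

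**Figure D2:**
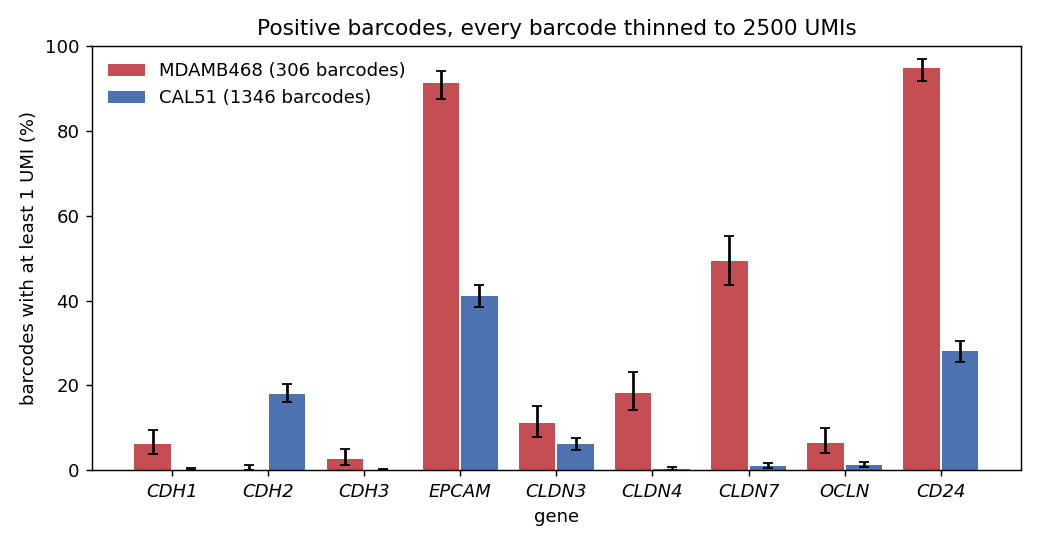
Percent of barcodes with at least 1 UMI of each gene after every barcode was thinned to 2500 UMIs, in MDAMB468 (306 barcodes) and CAL51 (1346 barcodes), with exact 95% Clopper-Pearson intervals. EPCAM and CD24 are found in 91.2% and 94.8% of MDAMB468 and in 41.1% and 28.0% of CAL51, and CDH2 in 18.1% of CAL51.

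EPCAM and CD24 varied more between CAL51 cells than between MDAMB468 cells. Variation was described by the Fano factor, the variance of the thinned counts divided by their mean, which is near 1 when cells differ by counting alone. EPCAM had a Fano factor of 1.07 in MDAMB468 around a mean of 2.53 UMIs and of 1.98 in CAL51 around a mean of 0.791. CD24 had factors of 1.45 and 2.89 around means of 3.39 and 0.554. Over genes with a mean of at least 0.1, the median factor was 1.05 in MDAMB468 and 1.06 in CAL51, and a factor of at least 1.5 was reached by 2.73% of genes in MDAMB468 and 2.97% in CAL51. Both genes passed 1.5 in CAL51, and neither passed it in MDAMB468. CDH2 in CAL51 had a factor of 1.01 and CLDN7 in MDAMB468 of 1.15.

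The spread shows in the distribution over cells. In CAL51, 793 barcodes, 58.9%, had 0 EPCAM UMIs, while a Poisson distribution of the same mean has 54.7% of barcodes positive against the 41.1% found. For CD24 the same comparison gave 42.5% against 28.0%, with 71.99% of barcodes at 0. In MDAMB468 the Poisson shares were 92.1% for EPCAM and 96.6% for CD24, against 91.2% and 94.8% found. At the upper end, 26 CAL51 barcodes had 5 or more CD24 UMIs and 9 had 8 or more. The 135 CAL51 barcodes with the most CD24 held 63.7% of its thinned UMIs, and the 31 MDAMB468 barcodes with the most held 23.1%, the same proportion of each library's barcodes. For EPCAM these figures were 48.1% and 23.1%. Such a share depends on the mean count as well as on the spread between cells. CDH2 in CAL51, with a Fano factor of 1.01, had 59.9% of its thinned UMIs in its highest 135 barcodes. CLDN4 in MDAMB468, with a factor of 0.99, had 59.7% in its highest 31. No share expected from counting alone was computed, so the contrast between the lines in these shares is not read as spread.

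**Figure D3:**
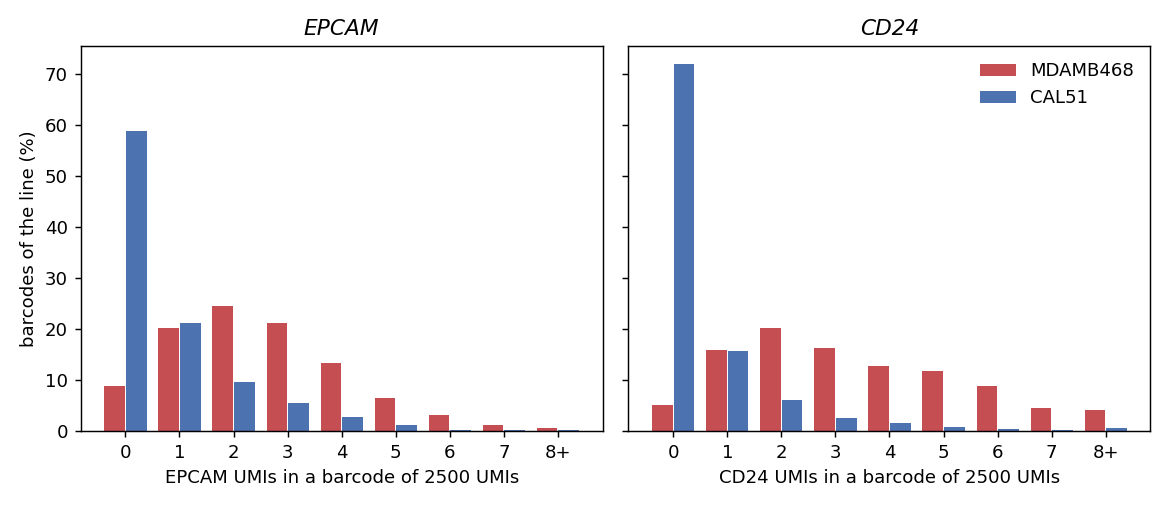
Percent of barcodes by number of EPCAM UMIs and of CD24 UMIs after thinning to 2500 UMIs, in MDAMB468 and CAL51. Counts of 8 or more share the last bin. CAL51 has its peak at 0 UMIs, with 58.9% of barcodes for EPCAM and 71.99% for CD24. The highest counts of EPCAM and CD24 are 10 and 13 UMIs in CAL51 and 8 and 11 in MDAMB468.

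EPCAM and CD24 were found together in CAL51 more often than their separate shares give. Both were positive in 204 CAL51 barcodes where independent shares give 154.9, and 620 barcodes had neither. CD24 was found in 36.9% [32.9 to 41.1] of EPCAM-positive and in 21.8% [19.0 to 24.9] of EPCAM-negative CAL51 barcodes. In MDAMB468 both were positive in 263 barcodes where independent shares give 264.4. EPCAM also occurred in cells with N-cadherin, since 103 CAL51 barcodes had both EPCAM and CDH2 where independent shares give 99.8. EPCAM was found in 42.4% [36.1 to 48.9] of CDH2-positive and in 40.8% [37.9 to 43.8] of CDH2-negative barcodes, so its share did not differ beyond counting error between them. Among the claudins of MDAMB468, CLDN4 and CLDN7 were found together in 23 barcodes where independent shares give 27.6. The correlation of the log counts of EPCAM and CD24 over barcodes was 0.20 in CAL51 and -0.06 in MDAMB468, and thinned counts of 1 library share its depth and preparation. Correlations with other genes were computed for genes of the 9 with at least 500 UMIs in a line, which were EPCAM, CLDN4, CLDN7 and CD24 in MDAMB468 and CDH2, EPCAM and CD24 in CAL51. No gene reached a correlation of 0.3 with any of these, so none is named as having a like pattern.

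The cells of each line were then clustered without the 9 genes and without the fixed lists of junction, surface, regulator and marker genes. CAL51 fell into 4 larger clusters of 436, 362, 298 and 241 barcodes and 1 of 9 barcodes. The clusters are called by number and leading genes, since no cell type was assigned. EPCAM was 245 CPM [230 to 261] in cluster 0, 179 CPM [168 to 191] in cluster 1, 278 CPM [262 to 294] in cluster 2 and 579 CPM [549 to 610] in cluster 3. CD24 followed with 117, 142, 159 and 709 CPM, the last with an interval of 676 to 743. CDH2 did not share this pattern, with 85.5, 92.9, 82.2 and 84.4 CPM. Cluster 3 thus stood above the others in EPCAM and CD24 and was level with them in CDH2.

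Cluster 3 held 17.9% of CAL51 barcodes, at a median of 7506 UMIs. It was singled out because its EPCAM was the highest, so the following values describe it and test nothing. Against the other CAL51 barcodes its EPCAM was 2.52-fold higher [2.36 to 2.68] and its CD24 5.05-fold higher [4.73 to 5.39]. Of 5065 genes with at least 500 UMIs in CAL51, CD24 had the highest ratio and EPCAM ranked 7, and 0.375% of these genes were at least 2-fold higher in the cluster. CLDN3 was 1.48-fold higher [1.15 to 1.87] and OCLN 1.82-fold higher [1.10 to 2.93], and the CDH2 ratio was 0.965 [0.829 to 1.12]. EPCAM was found in 74.3% of its barcodes at equal depth and CD24 in 65.6%, while in the other larger clusters EPCAM was found in 27.6% to 38.9% and CD24 in 17.7% to 21.1%.

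The genes that led cluster 3 beside CD24 and EPCAM included the actin-severing gene SCIN, the collagen gene COL1A2, FABP3, which binds fatty acids, PDLIM1 and RBP7. Among the junction and surface genes, CLDN1 was 3.97-fold higher there [2.74 to 5.73], the epithelial transcription factor gene ELF3 2.30-fold higher [1.64 to 3.19] and the keratin gene KRT19 2.10-fold higher [1.71 to 2.56]. The tight junction scaffold gene CGNL1 had a ratio of 0.340 [0.281 to 0.408] and ZEB1, a repressor of epithelial genes, a ratio of 0.691 [0.568 to 0.835]. The tight junction genes TJP1 and F11R were also lower, at 0.717 [0.625 to 0.821] and 0.603 [0.454 to 0.788]. The desmosome gene DSP was level at 0.960 [0.879 to 1.05]. Junction genes thus did not move one way in the cluster. Mesenchymal genes did not move one way. COL1A2 was 4.73-fold higher [4.12 to 5.42] and VIM 1.11-fold higher [1.03 to 1.19]. SPARC had a ratio of 0.406 and FN1 of 0.172 [0.0348 to 0.517]. COL3A1 had 0 UMIs in the cluster and 70 in the other barcodes. Cell doublets were not called, and their part in these values was not tested.

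**Figure D4:**
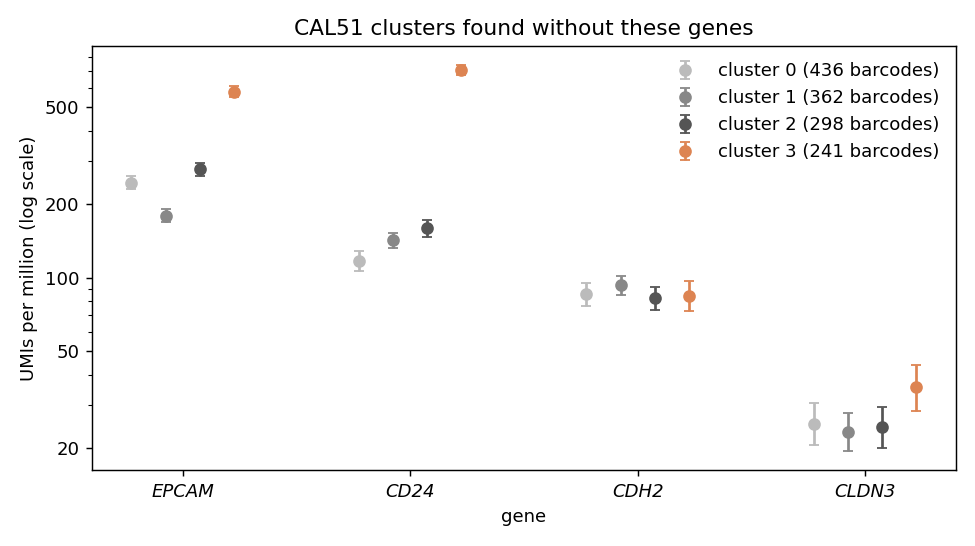
CPM of EPCAM, CD24, CDH2 and CLDN3 in the 4 larger CAL51 clusters on a log axis, with exact 95% Poisson intervals. EPCAM and CD24 reach 579 and 709 CPM in cluster 3, and CDH2 lies between 82.2 and 92.9 CPM in every cluster shown.

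The ranges of EPCAM and CD24 across clusters were narrower in MDAMB468. EPCAM lay between 798 and 1145 CPM and CD24 between 1029 and 1430 CPM over its 5 clusters, the smallest of which held 9 barcodes. CLDN7 lay between 192 and 330 CPM, and CDH2 was at 0 UMIs in every cluster. The CPM of EPCAM fell with barcode depth in both lines. From the shallowest to the deepest of 4 groups of barcodes EPCAM went from 1166 CPM [1034 to 1311] to 826 CPM [796 to 856] in MDAMB468 and from 382 CPM [350 to 417] to 242 CPM [232 to 252] in CAL51. CDH2 in CAL51 showed no such order, with 87.9, 93.8, 80.0 and 88.0 CPM. In MDAMB468 the 64 barcodes that lie 1 base from a larger one had 1181 CPM of EPCAM against 854 CPM in the others, and 204 CPM of CLDN7 against 307 CPM. Their part in the depth pattern was not tested.

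The other genes of the same structures were described from lists chosen by function, with earlier results of these data known. Of 10 adherens junction partners of the cadherins, 2 were at least 2-fold higher in MDAMB468 and 3 in CAL51, with a median log2 difference of -0.34. These counts stand beside the 15.8% and 18.6% of all genes given above, and with so few genes nothing particular to the partners is read from them or from the counts of the lists that follow. NECTIN4, a nectin that joins neighbouring cells, had the highest log2 difference at 5.16, and NECTIN3 the lowest at -5.65. CTNNA1, the alpha-catenin that ties cadherins to actin, was 32.9 CPM in MDAMB468 and 258 CPM in CAL51, 7.84-fold higher in CAL51 [6.75 to 9.15]. CTNNB1, the beta-catenin bound to the cadherin tail, differed by 1.25-fold [1.14 to 1.37] in the same direction. The lines differed in which nectins they held.

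Of 7 other claudins with at least 20 UMIs, 4 were at least 2-fold higher in MDAMB468 and 1 in CAL51, with a median of 1.52. CLDN10 had the highest log2 difference, 6.42, at 111 CPM in MDAMB468 and 0.308 CPM in CAL51. CLDN8 had 211 UMIs in MDAMB468 and 0 in CAL51, 207-fold higher against a floor of 3 counts. CLDN19 had 0 UMIs in MDAMB468 and 31 in CAL51, and the lowest log2 difference at -1.54. Of 14 other tight junction genes, 6 were at least 2-fold higher in MDAMB468 and 3 in CAL51, with a median of 0.56. MARVELD3, a relative of occludin, had the highest difference at 4.07. CGNL1, the paracingulin gene, had the lowest at -3.72, and the scaffold gene TJP1 (ZO-1) was also higher in CAL51, at 129 against 35.3 CPM. The membrane proteins CLDN4, CLDN7, CLDN8 and CLDN10 were thus higher in MDAMB468 while the scaffold genes TJP1 and CGNL1 were higher in CAL51.

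Of 8 desmosome genes, which encode the junctions that anchor keratin, 5 were at least 2-fold higher in MDAMB468 and 1 in CAL51, with a median of 1.71. DSC3, a desmosomal cadherin, had the highest difference at 5.03 and the plakophilin gene PKP2 the lowest at -4.06. DSP, the desmoplakin gene, was present in both lines at 824 and 254 CPM. Of 11 other surface proteins, 7 were at least 2-fold higher in MDAMB468 and 1 in CAL51, with a median of 2.47. BCAM, a laminin-binding protein, had the lowest difference at -2.38. CD44, the hyaluronan receptor often sorted together with CD24, was 320 CPM in MDAMB468 and 57.0 CPM in CAL51. SPINT2, a membrane protease inhibitor, was 347 and 348 CPM, so the epithelial surface genes did not all follow EPCAM.

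Of 10 regulators of epithelial and mesenchymal genes, 6 were at least 2-fold higher in MDAMB468 and 2 in CAL51, with a median of 2.44. ESRP1, an epithelial splicing factor, had the highest difference at 6.01, with 349 UMIs in MDAMB468 and 0 in CAL51. ZEB1, which represses CDH1, had the lowest at -5.86, with 1 UMI in MDAMB468 and 1101 in CAL51, a ratio of 373 [66.9 to 14761]. TWIST1 was higher in CAL51 at 12.6 against 2.91 CPM, whereas the related TWIST2 had 165 UMIs in MDAMB468 and 0 in CAL51. GRHL2, which activates CDH1 and claudin genes in epithelia, had 212 UMIs in MDAMB468 and 2 in CAL51. ELF3 was 197 CPM in MDAMB468 and 11.2 CPM in CAL51.

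Keratin and mesenchymal markers were set beside these values. KRT7 and KRT5 had 5243 and 2224 UMIs in MDAMB468 and 0 in the CAL51 barcodes kept, and KRT19 was 1934 and 30.6 CPM. KRT8 and KRT18 were present in both lines, at 764 and 919 CPM and at 555 and 1555 CPM. Summed over 7 keratin genes the level was 4688 CPM in MDAMB468 and 2505 CPM in CAL51. VIM, the mesenchymal intermediate filament, was 316 and 332 CPM, and COL1A2 had 0 UMIs in MDAMB468 and 863 in CAL51. Of the 6 mesenchymal markers, 1 was at least 2-fold higher in MDAMB468 and 3 in CAL51. COL1A1 was the 1 higher in MDAMB468, with 22 UMIs there and 11 in CAL51 and a log2 difference of 1.57. SPARC and COL3A1 were higher in CAL51, with log2 differences of -4.81 and -2.41. FN1 was 4.18 CPM in MDAMB468 and 6.16 CPM in CAL51. Beside its N-cadherin, CAL51 thus held keratins 8 and 18, EPCAM and CD24, and MDAMB468 held VIM beside its E-cadherin.

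**Figure D5:**
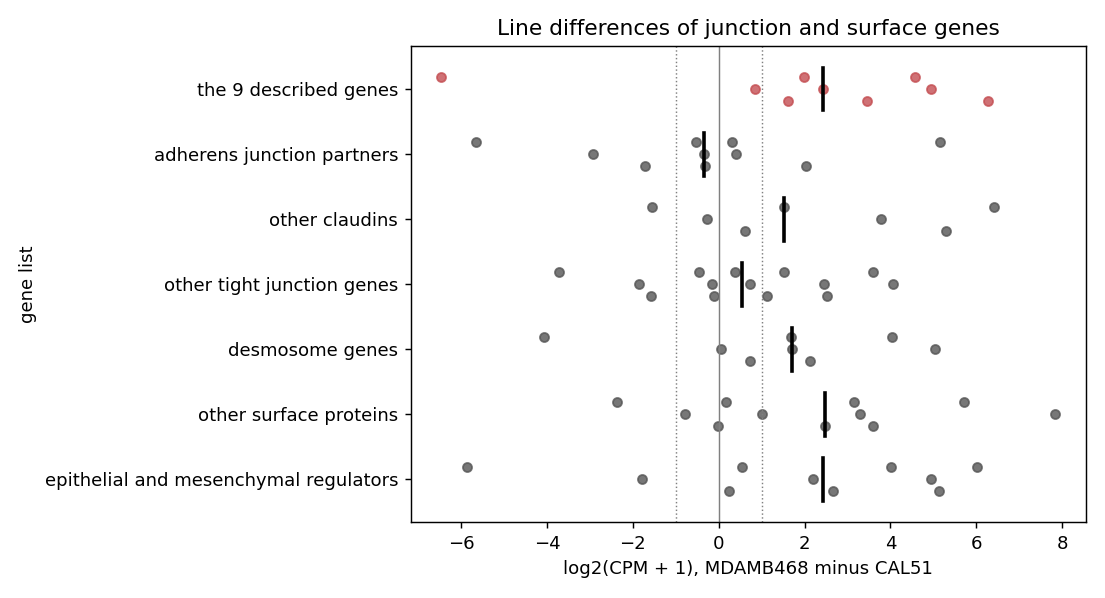
Log2 difference of CPM + 1, MDAMB468 minus CAL51, of each gene with at least 20 UMIs among the 9 described genes and in 6 lists of related genes, with a black bar at each list's median, a grey line at 0, dotted lines at 2-fold and heights within a row used only to keep points apart. The medians run from -0.34 for the adherens junction partners to 2.47 for the other surface proteins, and each of the 6 lists holds genes above and below 0.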

How the data were processed

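Polyadenylated RNA of single MDAMB468 and CAL51 cells was measured by Drop-seq, 1 library per line. Per the submitters' processing notes STARsolo was used. Genome build and barcode selection: not stated in any source used here. The authors deposited whole UMI counts per gene and barcode without normalisation, and the barcode names carry the line. Barcode sequences found in both lines were left out of CAL51.

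From the counts, UMIs were summed per line and scaled to CPM, and differences used log2(CPM + 1). The background is all genes with at least 20 UMIs. Folds carry exact conditional intervals, and zeros a floor of 3 counts per library. A barcode was thinned to 2500 UMIs without replacement (seed 1). Doublets were not sought or removed. Clusters used scanpy 1.11.5 and leidenalg 0.10.2 (2000 variable genes, 30 components, 15 neighbours, resolution 0.5). TMM factors came from edgeR 4.0.16, used for scaling only. Python 3.11.15, numpy 2.4.6 and scipy 1.17.1 were used. The fold calculation was tested on simulated data.

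The 9 genes and all lists were chosen with earlier results of these data known. Named genes are all 9, the highest and the lowest of each list, the markers, and genes correlated at 0.3 or more. A gene that this rule names is not reported here. CTNNA1, CTNNB1, CLDN8, TJP1, DSP, CD44, SPINT2, TWIST1, TWIST2, GRHL2, ELF3 and the genes given for cluster 3 were picked after their values were seen. Symbols were matched for 30730 identifiers, and upstream sequences for 5 of the 9 genes are in the RefSeq table used here outside chromosome 18. No p-value was computed.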

Additional observations from a re-analysis of the deposited data

Results flagged for a closer look

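The 31 barcode sequences that occur in both libraries were left out of CAL51, and their CAL51-labelled copies, 135240 UMIs in all, enter no comparison above. In these copies 8 of the 9 genes lay above the level of the other CAL51 barcodes, and for 7 of them the intervals lay apart. The exception among the 8 was CLDN3, at 51.8 CPM [20.8 to 106.6] against 25.8 CPM [23.4 to 28.4]. CDH1 was 22.2 CPM (3 UMIs) against 0.431 CPM, and CDH3 was 14.8 CPM (2 UMIs) against 0.185 CPM. CLDN4 was 96.1 CPM, CLDN7 170 CPM and OCLN 29.6 CPM, against 2.10, 2.96 and 5.98 CPM. EPCAM was 673 CPM against 283 CPM, and CD24 was 1183 CPM against 227 CPM. CDH2 was 37.0 CPM (5 UMIs) against 87.0 CPM. The MDAMB468-labelled copies of the same sequences had 34.4 CPM of CDH1, 307 CPM of CLDN7, 825 CPM of EPCAM, 1245 CPM of CD24 and no CDH2 UMI. In the copies the intervals of EPCAM [542 to 826] and CLDN7 [108 to 255] thus lay between those of the lines. The interval of CDH2 lay above that of MDAMB468 and overlapped that of CAL51. With these copies kept in CAL51, the CLDN7 log2 difference was 5.83 in place of 6.26.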

How the results depend on the processing

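No log2 difference of the 9 genes and no list median changed its direction under any alternative tried. In each of the 9 alternatives the count of genes at least 2-fold apart stayed at 7 higher in MDAMB468 and 1 higher in CAL51. The alternative with no minimum of UMIs could not change this count or any value of the 9 genes, since all have at least 20 UMIs. Of 81 recomputed log2 differences of the 9 genes, 62 moved by less than their counting interval, and the 62 include the 9 values fixed in this way. The range was 1.47 to 1.71 for EPCAM, 2.30 to 2.55 for CD24, 0.69 to 0.97 for CLDN3 and 1.21 to 2.15 for OCLN, and, with pseudocounts of 10 and 0.1 CPM, -3.28 to -9.77 for CDH2 and 2.05 to 5.96 for CDH1. TMM scaling and median of ratios scaling moved the median of all genes by -0.12 and -0.13. With a pseudocount of 10 CPM, 6.82% of all genes were at least 2-fold higher in MDAMB468 and 7.47% in CAL51, and with no minimum of UMIs 9.80% and 9.45%.

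The median of the desmosome genes was 1.57 with TMM, 1.56 with median of ratios, 1.54 with a pseudocount of 10 CPM and 1.30 with no minimum. The median of the regulators was 3.35 with a pseudocount of 0.1 CPM and 1.06 with 10 CPM. That of the other claudins was 0.95 with a pseudocount of 10 CPM and 0.082 with no minimum, which adds genes with few UMIs. That of the other surface proteins was 1.23 with a pseudocount of 10 CPM, 2.81 as a mean of the barcodes' own CPM and 1.42 with no minimum. Thinned to 1000 UMIs, 5 genes had a higher share in MDAMB468 with intervals apart, against 8, since CDH3, CLDN3 and OCLN overlapped at that depth. The ratio of the highest to the lowest CAL51 cluster was 3.23 for EPCAM and 6.04 for CD24. It was 2.62 and 3.80 at resolution 0.3 and 3.95 and 8.20 with 10 components, which draw the clusters differently. No paired analysis was possible because each line is 1 library with no replicate number. Low counts limit CDH1, CDH3 and CLDN4 in CAL51, each with 34 UMIs or fewer.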

Other observations

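Cell cycle phase, called from lists of S phase and of G2 and M phase genes, moved with the level of EPCAM in CAL51, and with that of CD24 but not with its share of positive barcodes. The 136 CAL51 barcodes called G1 had 442 CPM of EPCAM [406 to 479], against 284 CPM in the 443 called S and 263 CPM in the 767 called G2 or M. CD24 was 436 CPM [400 to 473], 255 CPM and 188 CPM in the same order. At 2500 UMIs EPCAM was found in 55.1% [46.4 to 63.7], 39.5% [34.9 to 44.2] and 39.5% [36.0 to 43.1] of these barcodes, and CD24 in 29.4% [21.9 to 37.8], 30.7% [26.4 to 35.2] and 26.2% [23.1 to 29.5], so no order of CD24 over phases is read from its CPM. CLDN3 was 49.3 CPM [37.9 to 62.9], 23.6 CPM and 23.9 CPM. Its shares at 2500 UMIs were 10.3% [5.74 to 16.7], 6.09% [4.05 to 8.74] and 5.35% [3.86 to 7.18]. These intervals overlap, so no order of CLDN3 over phases is read. CDH2 was 91.6, 95.6 and 82.5 CPM, so it did not share this order. In MDAMB468 EPCAM was 893, 937 and 828 CPM and CD24 was 1466.5, 1037 and 1271 CPM, with 45, 96 and 165 barcodes. These are phase calls from counts of 1 library, and free RNA can enter them, which was not tested.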
